A study of Homo sapiens with 22 samples.

Results

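The regions described here are 3 windows of the genome around FHL2, MMP17 and CISH, genes induced by estrogen in Ishikawa cells. All 20 peak lists of the study were searched for peaks of FLAG-tagged estrogen receptor alpha (ESR1) that overlap chr2:105930000-106150000 (FHL2), chr12:132260000-132390000 (MMP17) or chr3:50600000-50700000 (CISH), in coordinates of GRCh37 (hg19). The windows held 471 of the 356467 peaks. When overlapping peaks of all lists were merged, these fell into 81 of the 93612 merged regions, here called sites. The FHL2 window held 16 sites, the MMP17 window 50 and the CISH window 15.

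ESR1 is a nuclear receptor that binds DNA when estradiol (E2) occupies its ligand-binding domain, mostly at enhancers away from gene starts, and recruits coactivators there. The D538G substitution lies in the ligand-binding domain, recurs in endometrial and breast cancers, and is known to let the receptor act without hormone. FHL2 is a LIM-domain protein without DNA-binding activity that acts as a cofactor of transcription factors and binds cytoskeletal proteins. MMP17 is a matrix metalloproteinase held on the cell surface by a lipid anchor. CISH belongs to the suppressor of cytokine signaling family, is induced through STAT5 and dampens signaling by cytokine receptors.

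Ishikawa is a human endometrial adenocarcinoma line. The clones compared here all carried a FLAG tag on ESR1, either wild type (2 clones) or with D538G (3 clones), and all were starved of hormone before treatment for 1 h with 10 nM E2 or 0.1% DMSO, the solvent. Chromatin was precipitated with an antibody against FLAG, with 2 replicates per clone and treatment. This gave 4 wild-type DMSO, 4 wild-type E2, 6 D538G DMSO and 6 D538G E2 libraries. Each genotype therefore rests on a few clones, replicates of 1 clone are not fully independent, and whether replicates came from separate cultures is not given in the labels, so p-values measure the spread between these libraries, which may be technical. Gene expression was not analysed here, and ESR1 presence was not checked by any other measure.

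The lists differed widely in length, and the number of peaks in a window cannot be told apart from that. Wild-type DMSO lists held 45 to 29118 peaks, with a median of 565.5. Wild-type E2 lists held 5757 to 35344, D538G DMSO lists 1619 to 54903 and D538G E2 lists 1977 to 49223 on the chromosomes used. The read depth behind them is unknown. The list labelled D538G clone 2 E2 replicate 1 carries peak names with the letters Ctl, as do all 5 DMSO lists of replicate 1 and no other E2 list. Some of the main results that use it are also given without that pair of libraries. Among those not given so are the difference in E2 effect and the MMP17 and CISH peak numbers between genotypes under DMSO. Peak names with the word Input stand in 4 lists, all of D538G clones 1 and 2 replicate 1, and in no wild-type list. Whether the lists were called against the same reference is not given in the sources used here, and its part in the differences between genotypes in peak number and rank was not tested. Both wild-type DMSO lists of replicate 1 held 51 peaks or fewer and had none in any of the 3 windows, so some results that use them are given without them too. The difference in E2 effect and the MMP17 and CISH peak numbers between genotypes under DMSO are not. The other 18 lists each had at least 1 peak in every window.

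Promoter sequence is shown for the 2 genes with an entry in the RefSeq promoter table, FHL2 with 4 entries and CISH with 1, as 250 bases upstream of the start in GRCh38.p14. MMP17 is named only. These positions belong to another build than the peaks and cannot be set against them. Capitals mark GGTCA or its reverse TGACC, the arm of an estrogen response element, and TTCNNNGAA, the motif of STAT factors, which reads the same on both strands. The sequences are shown to contrast the gene starts in the motif of the receptor studied here with that of STAT factors.
FHL2 entry 1 (chr2:105438514-105438763, minus strand): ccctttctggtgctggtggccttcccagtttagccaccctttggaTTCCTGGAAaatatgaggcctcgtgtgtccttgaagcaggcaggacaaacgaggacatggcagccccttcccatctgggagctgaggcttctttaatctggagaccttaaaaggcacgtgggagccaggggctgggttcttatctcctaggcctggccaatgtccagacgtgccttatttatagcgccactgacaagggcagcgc
FHL2 entry 2 (chr2:105399052-105399301, minus strand): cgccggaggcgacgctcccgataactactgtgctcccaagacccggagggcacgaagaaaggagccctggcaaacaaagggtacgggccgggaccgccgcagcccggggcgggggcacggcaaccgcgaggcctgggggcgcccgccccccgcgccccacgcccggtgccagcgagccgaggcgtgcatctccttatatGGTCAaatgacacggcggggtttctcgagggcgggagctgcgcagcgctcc
CISH (chr3:50611775-50612024, minus strand): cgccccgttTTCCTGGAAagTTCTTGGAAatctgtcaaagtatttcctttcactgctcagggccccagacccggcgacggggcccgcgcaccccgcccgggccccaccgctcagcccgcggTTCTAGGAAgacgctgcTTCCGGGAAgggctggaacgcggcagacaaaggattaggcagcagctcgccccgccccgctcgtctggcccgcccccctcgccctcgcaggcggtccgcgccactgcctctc
FHL2 entry 2 held 1 GGTCA, and the other 3 FHL2 entries and CISH held neither GGTCA nor TGACC. Across the table, 11465 of 35116 promoters of this length (32.6%) held at least 1 of them. The full palindrome GGTCANNNTGACC was in 14 promoters (0.0399%) and in none of these 5. CISH held 4 matches to TTCNNNGAA, and FHL2 entries 1 and 3, which overlap, held 1 each. This motif was in 2306 promoters (6.57%). A match describes letters in this stretch and is no evidence of binding.

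In the gene table of the same build, FHL2 lies between C2orf49 and NCK2, MMP17 between SFSWAP and ULK1, and CISH between HEMK1 and MAPKAPK3. No annotation of GRCh37 was at hand, so no site was placed in an exon, intron or promoter or assigned to 1 of these genes.

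Sites were packed unevenly in each window. Among windows of the same width across the genome that held any site, 83.6% held fewer sites than the FHL2 window, where the median was 4. The MMP17 window held more sites than 98.7% of 14121 such windows, where the median was 3, and 182 windows held as many or more. The CISH window held more than 90.2%. In the FHL2 window, 2 runs of 5 sites with gaps of at most 5 kb stood out after the values were seen. Sites between 106014850 and 106026786 spanned 11.9 kb and took 44 of the 112 peaks, and those between 106131689 and 106143487 spanned 11.8 kb and took 47. In the CISH window, 9 sites between 50636513 and 50655330 took 83 of 106 peaks. In the MMP17 window, 33 sites between 132303844 and 132357105 took 137 of 253 peaks.

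**Figure D1:**
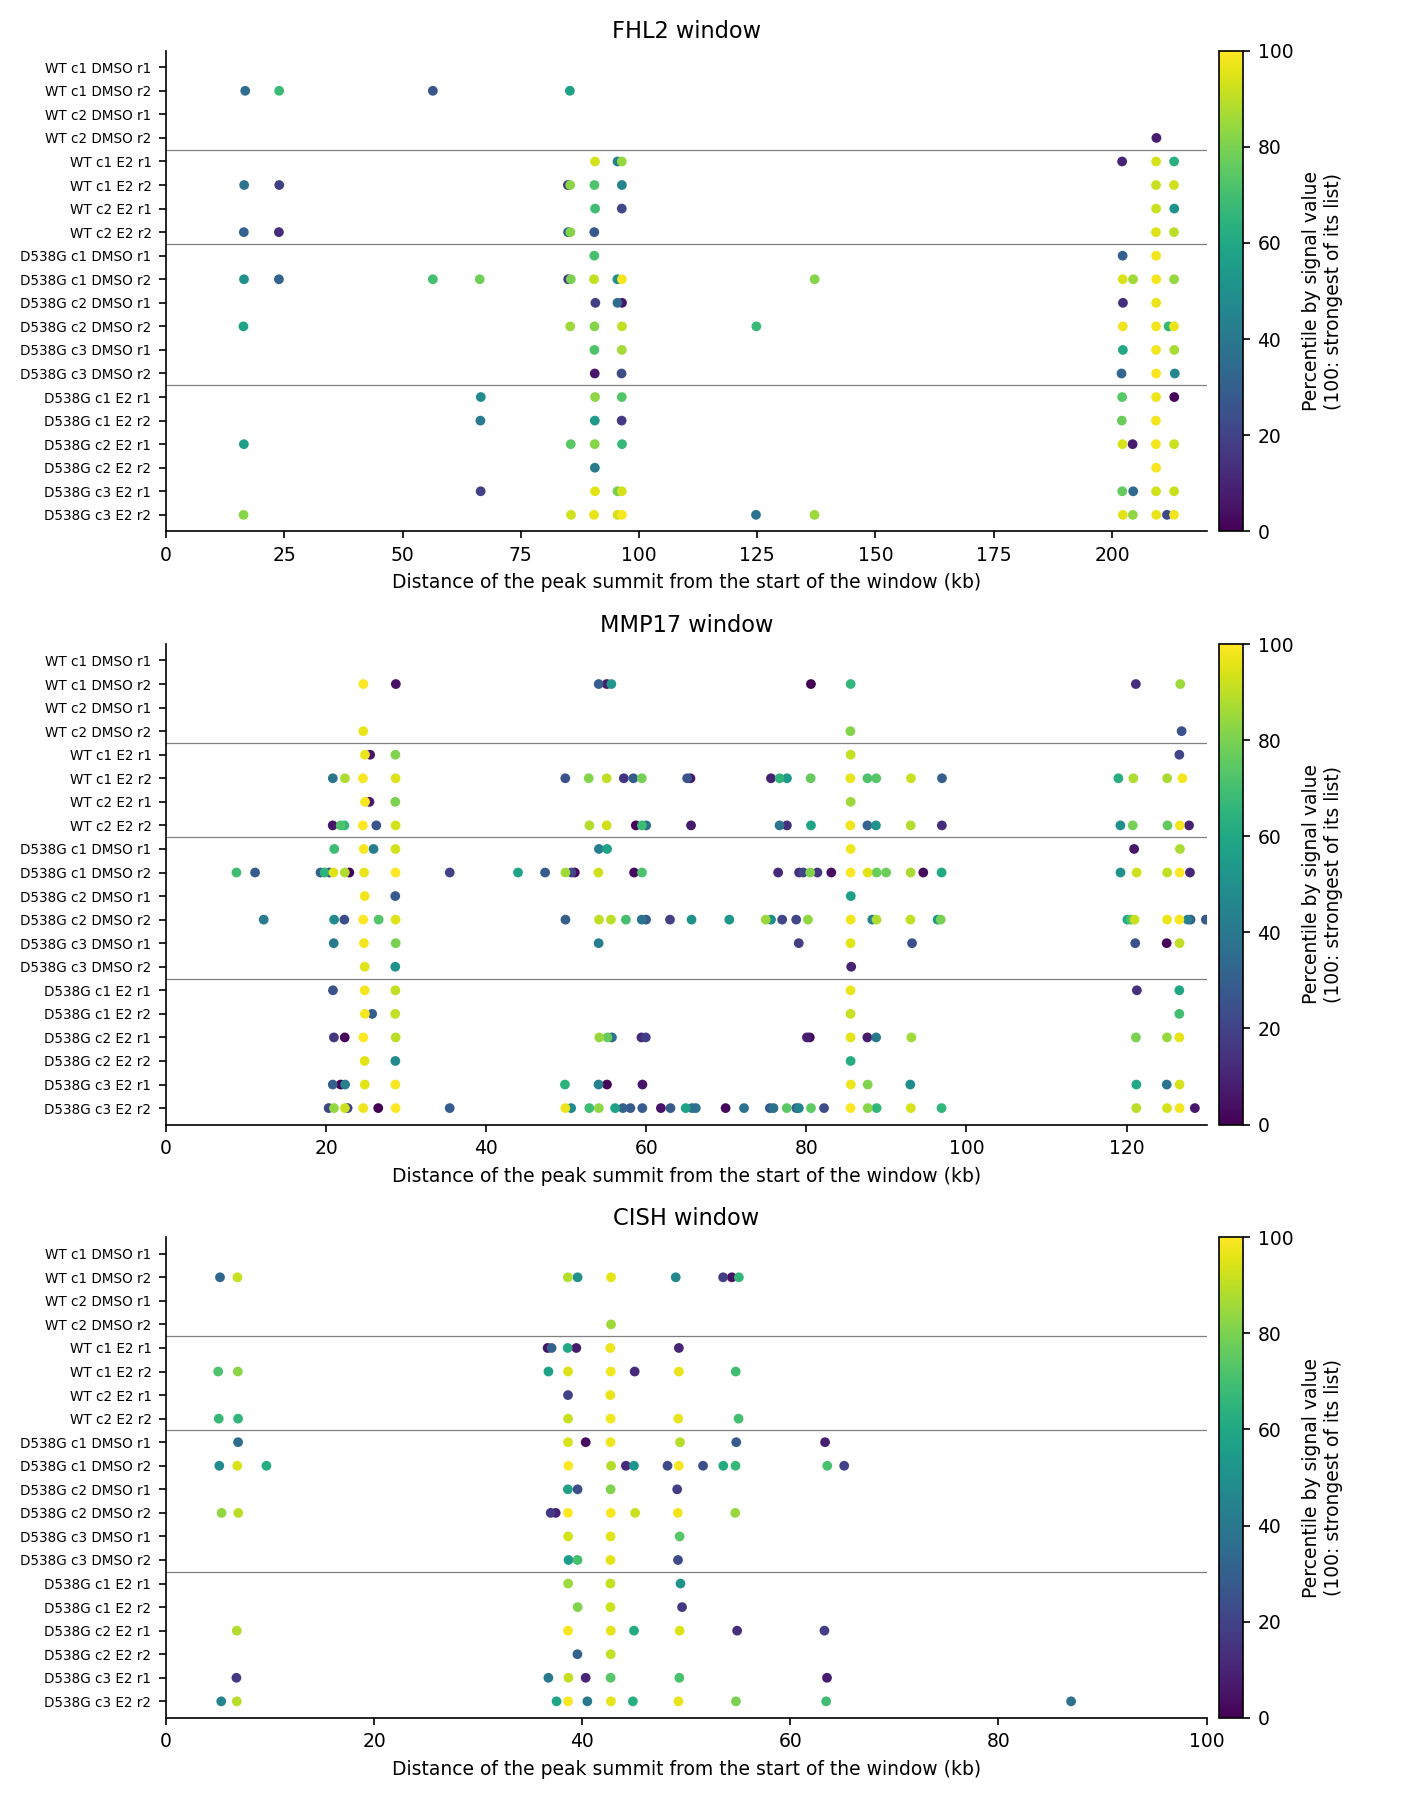
Map of every peak in the 3 windows, 1 row per library in order of group (grey lines part the groups), with the distance of the peak summit from the window start in kb on the horizontal axis and the percentile of its signal value within its own list as colour. The columns of points near 209.3 kb in the FHL2 window, 24.6 to 24.9 kb and 85.5 kb in the MMP17 window and 42.7 kb in the CISH window recur in 17 or 18 of the 20 libraries, while the rows of the 2 shortest lists are empty.

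The ranks below use the signal value that the authors' lists give for each peak. A percentile of 100 is the strongest peak of a list. Ranks in lists of unequal length describe each list and show no change between groups. Up to 4 sites per window are described one by one, those with peaks in most libraries.

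The leading FHL2 site, chr2:106138166-106139999, had a peak in 17 of 20 libraries and was the strongest peak of the window in 14 lists. In wild-type clones with E2 it had a peak in 4 of 4 libraries, at percentiles 93.4 in clone 1 replicate 1, 91.8 in clone 1 replicate 2, 92.0 in clone 2 replicate 1 and 94.7 in clone 2 replicate 2. With DMSO it had a peak in 1 of 4 wild-type libraries, clone 2 replicate 2, at rank 995 of 1080. That list is far shorter than the 29118-peak list of clone 1 replicate 2, which had no peak there. All 6 D538G DMSO libraries had a peak, from percentile 96.9 through a median of 98.2 to 99.0, and all 6 D538G E2 libraries had one, from 93.2 through 97.7 to 99.0. It ranked 17 of 1619 in D538G clone 3 DMSO replicate 2 and 20 of 1977 in D538G clone 2 E2 replicate 2, the shortest lists of that genotype. All 17 summits fell within 103 bp.

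Another FHL2 site in the same run, chr2:106142458-106143487, had a peak in all 4 wild-type E2 libraries, at percentiles 63.0, 92.4, 50.6 and 89.8 in clone 1 replicates 1 and 2 and clone 2 replicates 1 and 2, and in no wild-type DMSO library. It had a peak in 4 of 6 D538G DMSO and 4 of 6 D538G E2 libraries. In the other run of FHL2 sites, chr2:106020133-106021162 had a peak in 16 libraries. These were all 4 wild-type E2 libraries (percentiles 93.2, 72.2, 68.8 and 27.9 in the same order), none of the 4 wild-type DMSO libraries and all 12 D538G libraries. The D538G percentiles ran from 6.18 through 71.3 to 91.4 with DMSO and from 41.3 through 82.4 to 96.2 with E2, so the ranges of the groups overlap. The site chr2:106026025-106026786 had a peak in 13 libraries, of which 3 were wild type with E2, 5 D538G with DMSO and 5 D538G with E2.

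One further FHL2 site, chr2:106131689-106132924, lies outside the rule for named sites and was chosen after its values were seen. It had a peak in 11 of 12 D538G libraries and in 1 of 8 wild-type libraries. The D538G peaks ran from percentile 13.6 through 46.5 to 97.9 in all 6 DMSO libraries and from 74.2 through 77.1 to 95.1 in 5 of 6 E2 libraries. The wild-type peak was in clone 1 E2 replicate 1, at rank 7431 of 8206. The site had a peak in the D538G clone 3 DMSO replicate 2 list of 1619 peaks, at rank 1089, and none in the wild-type lists of 35344, 31108 and 29118 peaks. The part of list length in this presence was not tested.

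**Figure D2:**
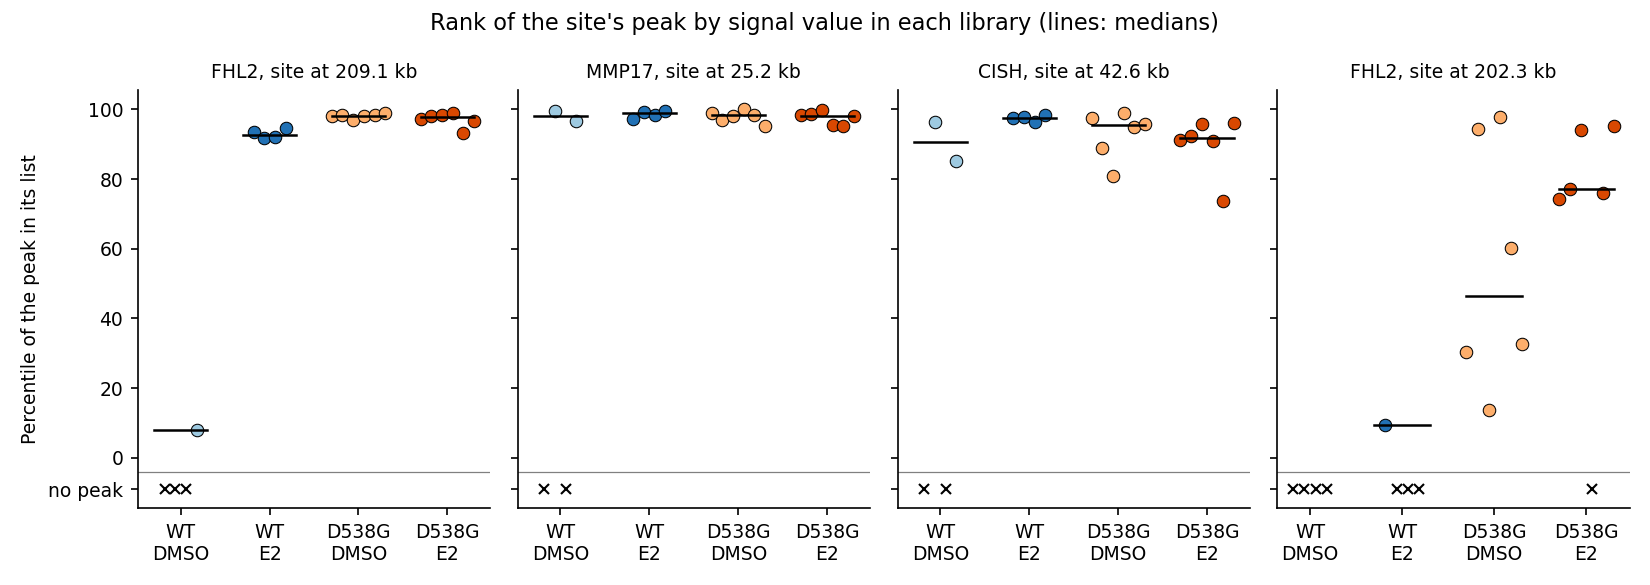
Percentile of the peak by signal value within its list, 1 point per library in 4 groups, at the leading site of each window and at the FHL2 site chr2:106131689-106132924 (midpoint 202.3 kb into the window, as in the panel titles). Crosses mark libraries without a peak and lines mark medians over libraries with one. The leading FHL2 site has a peak in all 12 D538G libraries at or above percentile 93.2 and in 1 of 4 wild-type DMSO libraries, and the site at 202.3 kb has a peak in 11 of 12 libraries with D538G but in 1 of 8 without it.

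In the MMP17 window, chr12:132283388-132286997 had a peak in 18 libraries, at least at percentile 95.3 in each, and was the strongest peak of the window in 15 lists. In wild-type clones with DMSO it ranked 117 of 29118 in clone 1 replicate 2 and 38 of 1080 in clone 2 replicate 2, and it had no peak in the lists of 51 and 45 peaks. With E2 the wild-type ranks were 229 of 8206, 303 of 35344, 88 of 5757 and 125 of 31108. D538G ranks ran from 21 through 109 to 1610 with DMSO and from 40 through 145.5 to 974 with E2. Every library with more than 51 peaks therefore had this site among its strongest 5%. Its summits spread over 273 bp, more than at the other sites with 17 or 18 libraries in the FHL2 and MMP17 windows.

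The site chr12:132344769-132346077 also had a peak in 18 libraries. With DMSO the wild-type percentiles were 66.7 in clone 1 replicate 2 and 81.6 in clone 2 replicate 2, and with E2 they were 91.0, 96.4, 85.5 and 97.8. D538G percentiles ran from 9.51 through 96.5 to 99.6 with DMSO and from 62.1 through 96.3 to 99.9 with E2. The site chr12:132288012-132289080 had a peak in 17 libraries: all 4 wild-type E2 libraries, 1 of 4 wild-type DMSO libraries at rank 27928 of 29118, and all 12 D538G libraries. The site chr12:132385928-132388149 had a peak in 14 libraries, 5 of them wild type and 9 D538G.

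Of the other 46 MMP17 sites, 21 had a peak in 1 library only. These came from 3 long lists: 10 from D538G clone 1 DMSO replicate 2, 6 from D538G clone 2 DMSO replicate 2 and 5 from D538G clone 3 E2 replicate 2. The FHL2 window had no site with a peak in only 1 library, and the CISH window had 6.

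In the CISH window, chr3:50641354-50643871 had a peak in 18 libraries and was the strongest of the window in 13 lists, among them all 6 wild-type lists with a peak there. The wild-type percentiles were 96.3 and 85.2 with DMSO in clone 1 replicate 2 and clone 2 replicate 2, and 97.4, 97.8, 96.5 and 98.3 with E2. D538G percentiles ran from 80.8 through 95.5 to 99.0 with DMSO and from 73.6 through 91.8 to 96.2 with E2. Its 18 summits fell within 77 bp. Next to it, chr3:50636513-50640947 had a peak in 17 libraries and was the strongest of the window in 5 lists, all D538G. It had a peak in all 12 D538G libraries, all 4 wild-type E2 libraries and 1 of 4 wild-type DMSO libraries. Its summits fell within 100 bp of their median, 50638635, in 14 libraries. In the other 3 they lay at 50639558 (D538G clone 1 E2 replicate 2), 50639532 (D538G clone 2 E2 replicate 2) and 50639546 (D538G clone 3 DMSO replicate 2), which are the 3 lists with peaks on the mitochondrial sequence. This site is 4435 bp wide and holds 31 peaks, so it joins several summits.

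The site chr3:50648390-50650075 had a peak in 15 libraries, 3 of them wild type with E2 and 1 wild type with DMSO. The site chr3:50606290-50607586 had a peak in 9 libraries, at percentiles from 16.9 to 94.2.

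The number of peaks per window was then compared between groups, to ask whether hormone or the mutation changed how many ESR1 peaks the 3 windows held. In the FHL2 window the wild-type libraries held 0 peaks with DMSO and 6 with E2 in clone 1 replicate 1, 4 and 8 in clone 1 replicate 2, 0 and 4 in clone 2 replicate 1, and 1 and 7 in clone 2 replicate 2. The E2 library was higher in 4 of 4 pairs, while the ranges of both groups meet at 4. The means were 1.25 ± 1.89 with DMSO and 6.25 ± 1.71 with E2 (SD, n = 4 each), a difference of 5 peaks. An exact permutation test over the libraries, two-sided and unpaired, gave p = 0.0571. Adjusted over all windows of this width it was 0.443, which does not pass the threshold. The difference is larger than the SD of either group, and E2 minus DMSO was 6, 4, 4 and 6 peaks in the 4 pairs. Leaving out each library in turn, the difference was 4.42 to 5.92 peaks (exact permutation test, p from 0.0286 to 0.0857). The highest value came without wild-type clone 1 DMSO replicate 2, which leaves DMSO lists of 51, 45 and 1080 peaks. With no library left out, the test at an unadjusted p under 0.05 called 11.3% of 7393 windows of this width.

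In the MMP17 window the wild-type means were 3 ± 4.24 with DMSO and 14.75 ± 11.8 with E2 (SD, n = 4 each). The E2 libraries of both clones held 25 peaks in replicate 2 and 5 or 4 in replicate 1. E2 was higher in 4 of 4 pairs, by 5, 16, 4 and 22 peaks, and the difference of 11.75 peaks, about the SD of the E2 group, did not pass the threshold (exact permutation p = 0.171, background 11% of windows). In the CISH window the means were 2.5 ± 4.36 and 5.5 ± 2.52 (SD, n = 4 each), and E2 was higher in 3 of 4 pairs (exact permutation p = 0.343, background 10.8%). Clone 1 replicate 2 held 9 CISH peaks with DMSO and 8 with E2, and without its DMSO library the difference was 5.17 peaks. Without both wild-type DMSO lists of replicate 1 the differences were 3.75 (FHL2), 8.75 (MMP17) and 0.5 (CISH) peaks.

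In D538G clones the means with DMSO and E2 were 6.83 ± 4.02 and 6.83 ± 3.37 in the FHL2 window, 16 ± 15.4 and 14.3 ± 13.5 in the MMP17 window, and 6.83 ± 4.17 and 5.5 ± 3.45 in the CISH window (SD, n = 6 each). The exact permutation p was 1, 0.892 and 0.617. In the FHL2 window E2 minus DMSO was 3 in each of the 3 replicate 1 pairs and -9, -7 and 7 in the replicate 2 pairs of clones 1, 2 and 3. Without the D538G clone 2 pair of replicate 1 the differences were -0.6, -5 and -2.2 peaks. The E2 effect in D538G minus that in wild type was -5 (FHL2), -13.4 (MMP17) and -4.33 (CISH) peaks. None of these had an unadjusted p under 0.05 (exact permutation p = 0.219, 0.343 and 0.305). The SD of E2 minus DMSO was 6.42, 26.5 and 7.06 over D538G pairs (n = 6) and 1.15, 8.73 and 3.16 over wild-type pairs (n = 4). In size, each difference was thus larger than the wild-type SD and smaller than the D538G SD.

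With DMSO alone, D538G libraries held more peaks than wild type in each window on average. In the FHL2 window the wild-type DMSO libraries held 0, 4, 0 and 1 peaks and the D538G DMSO libraries held 3 to 14, with a median of 5. The difference was 5.58 peaks (exact two-sided permutation p = 0.0381, adjusted p = 0.885, background 4.15% of windows), and it was the only 1 of 18 comparisons of peak number with an unadjusted p under 0.05. Without both wild-type lists of under 100 peaks it was 4.33 (p = 0.25, exact permutation test), and without the D538G clone 2 pair of replicate 1 it was 5.95 (p = 0.0397, exact permutation test). With clone means as units it was the same size at an exact permutation p of 0.1, the smallest that 3 clones against 2 allow. In the MMP17 and CISH windows the differences were 13 and 4.33 peaks (exact permutation p = 0.152 and 0.157, backgrounds 3.77% and 3.79%).

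With E2 the genotypes differed by 0.583, -0.417 and 0 peaks (D538G minus wild type) in the FHL2, MMP17 and CISH windows, where the SD within a group was 1.71 to 13.5. D538G with DMSO against wild type with E2 gave 0.583, 1.25 and 1.33 peaks. None of these 6 had an exact permutation p below 0.638. They do not show that the groups held the same number.

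**Figure D3:**
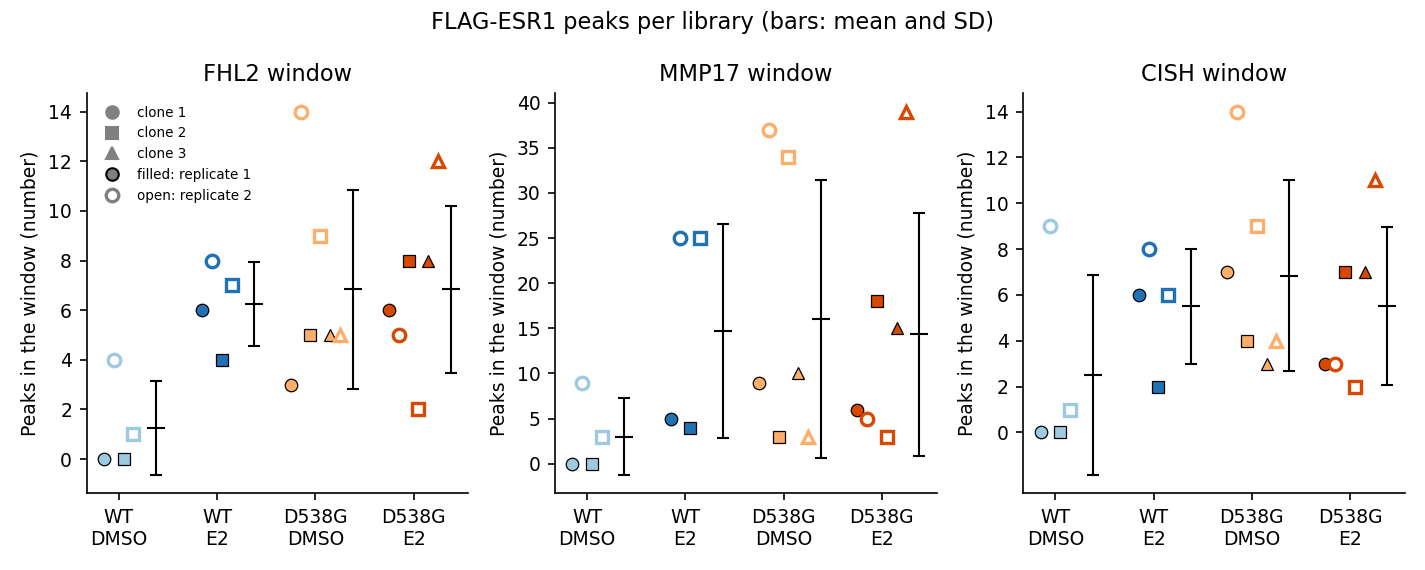
Number of peaks in each window per library, with groups on the horizontal axis, clones as symbols, replicate 1 filled and replicate 2 open, and mean and SD as bars. Wild-type DMSO libraries hold 0 to 4 FHL2 peaks and wild-type E2 libraries 4 to 8, and the MMP17 panel shows the widest spread, from 3 to 39 peaks in D538G E2 libraries.

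Long lists held more peaks in the windows than short ones, but not list by list: the list of 29118 peaks held 4 FHL2 peaks and that of 1619 peaks held 5. The 3 lists of 49223 peaks or more held 9 to 14 FHL2 peaks and 34 to 39 MMP17 peaks, while the 3 lists of 1080 to 1977 peaks held 1 to 5 and 3. Per 1000 peaks of the list, the wild-type FHL2 means were 0.266 ± 0.445 with DMSO and 0.469 ± 0.282 with E2 (SD, n = 4 each), and the MMP17 means were 0.772 ± 1.35 and 0.704 ± 0.0796. On that scale the E2 libraries differed from the DMSO libraries in the MMP17 window by -0.0679 (E2 minus DMSO), against 11.75 on the scale of peaks. That sign rests on wild-type clone 2 DMSO replicate 2, with 3 MMP17 peaks in a list of 1080 (2.78 per 1000), and without this library the difference was 0.601. The D538G and wild-type DMSO means in the FHL2 window were 0.918 ± 1.13 (SD, n = 6) and 0.266 ± 0.445 (exact permutation p = 0.367). The part of list length in the differences between groups was not tested beyond this scale and lists held to at most 1000 peaks. That limit does not make the lists equal, as 2 wild-type DMSO lists hold 51 and 45 peaks.

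**Figure D4:**
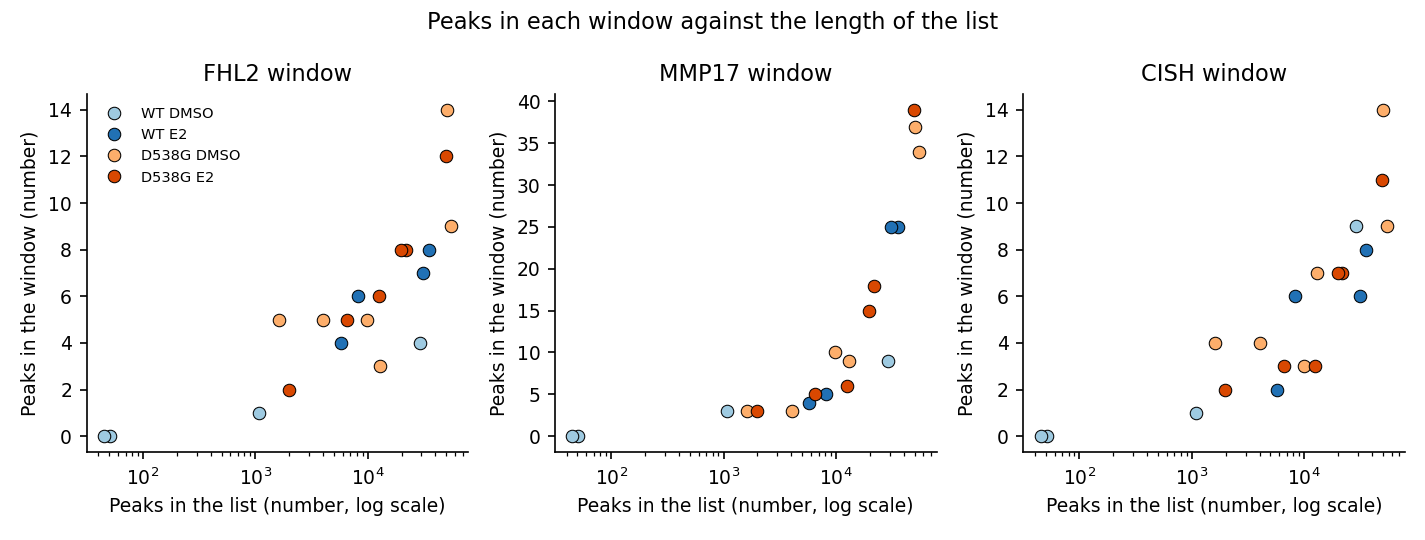
Peaks in each window against the number of peaks in the list (log scale), 1 point per library, coloured by group. The 3 lists of 49223 peaks or more hold the most MMP17 peaks, 34 to 39, while lists of middle length do not follow a strict order, and the wild-type DMSO list of 29118 peaks lies below lists of like length in the MMP17 window, with 9 peaks against 25 in the wild-type E2 list of 31108.

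The presence of a peak at each site was compared by Fisher's exact test (two-sided, Benjamini-Hochberg adjusted over all regions with peaks in at least 2 of the libraries compared). No region of the genome passed the adjusted threshold in any of the 5 comparisons (0% of 29233 to 44920 regions), so the counts below are of unadjusted p under 0.05 and are read against the share of all regions called. Counts under other settings that lack this share are not read as a result.

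In wild type, 34 of the 81 sites could be tested for E2 against DMSO, and 34 of 34 had a peak in a larger share of the E2 libraries, as did 90.7% of all regions tested. All 34 had peaks in at least 2 E2 libraries, and 4 of them also in at least 2 DMSO libraries. The filter of 2 libraries was thus met through the E2 group, so the direction was largely set by it and is not read as a result. FHL2 sites chr2:106020133-106021162 and chr2:106142458-106143487 had a peak in 4 of 4 E2 and 0 of 4 DMSO libraries (p = 0.0286, adjusted p = 0.306, Fisher's exact test). Across the genome 9.34% of regions were called in that direction, a share near that of these 2 in 34 sites. With each E2 library paired to the DMSO library of its clone and replicate, neither passed (exact McNemar p = 0.125, the smallest that 4 pairs give). Without both DMSO lists of under 100 peaks, neither passed (Fisher's exact test, p = 0.0667, the smallest that 4 against 2 allow). Without wild-type clone 1 DMSO replicate 2 alone, which leaves DMSO lists of 51, 45 and 1080 peaks, 4 sites were called. The share of all regions called in that fit is not given here, so this count has no background.

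In D538G, 47 sites could be tested for E2 against DMSO and Fisher's exact test called 0 at an unadjusted p under 0.05, against 0.02% of all regions. Of the 47, 7 had a peak in more E2 libraries, 8 in fewer and 32 in equal numbers. The 7 are 14.9% of these sites, against 23.5% of all regions tested with a peak in more E2 libraries. At 7 of the 12 named sites all 12 D538G libraries had a peak, among them the leading site of each window. Sites were named for having peaks in most libraries, and most libraries are D538G, so this count follows in part from the rule and is not read as a result.

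Between genotypes under DMSO, 37 sites could be tested, and 34 (91.9%) had a peak in a larger share of the D538G libraries, as did 82.2% of all regions tested. Each of these 34 met the filter of 2 libraries through its D538G peaks alone. The other 3 had a peak in 1 of 6 D538G and 1 of 4 wild-type libraries. The direction was thus largely set by the filter and is not read as a result. Of the 37, 7 had an unadjusted p under 0.05, against 3.57% of all regions in that direction. They were 4 FHL2 sites, 1 MMP17 site and 2 CISH sites. FHL2 sites chr2:106020133-106021162 and chr2:106131689-106132924 had peaks in 6 of 6 D538G and 0 of 4 wild-type libraries (Fisher's exact test, p = 0.00476, adjusted p = 0.585). The leading FHL2 site, chr12:132288012-132289080 at MMP17, and chr3:50636513-50640947 and chr3:50648390-50650075 at CISH each had peaks in 6 of 6 against 1 of 4 (Fisher's exact test, p = 0.0333, adjusted p = 1), and chr2:106026025-106026786 in 5 of 6 against 0 of 4 (p = 0.0476). Without both wild-type DMSO lists of under 100 peaks, FHL2 sites chr2:106020133-106021162 and chr2:106131689-106132924 were the 2 still called, at 6 of 6 against 0 of 2 (Fisher's exact test, p = 0.0357), against 0.821% of all regions. Without wild-type DMSO replicate 1 of either clone 3 sites were called, without wild-type clone 2 DMSO replicate 2 there were 4, and without the D538G clone 2 pair of replicate 1 there were 9. The shares of all regions called in these fits are not given here, so these counts are not read as a result about the sites.

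With E2, 43 sites could be tested between genotypes and Fisher's exact test called 0, against 1.21% of all regions. For D538G with DMSO against wild type with E2, 40 sites could be tested and 1 was called, FHL2 site chr2:106131689-106132924 with 6 of 6 against 1 of 4 libraries (Fisher's exact test, p = 0.0333, adjusted p = 0.914), against 0.145% of all regions in that direction. In the other direction 4.85% of all regions and 0 of the 40 sites were called, and in both directions 4.99% of all regions. One called site among 40 is therefore not read as an excess. Without the D538G clone 2 pair of replicate 1 this FHL2 site had 5 of 5 against 1 of 4 (Fisher's exact test, p = 0.0476). It was not called without wild-type E2 clone 1 replicate 2, clone 2 replicate 1 or clone 2 replicate 2. The wild-type E2 libraries are the same in both comparisons, and the D538G DMSO libraries are those of the comparison under DMSO.

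Sites with peaks in at least 2 libraries of a group numbered 34 in D538G with DMSO, 32 in D538G with E2, 34 in wild type with E2 and 4 in wild type with DMSO. D538G with DMSO and wild type with E2 shared 28, which is 82.4% of each. Across the genome these 2 groups shared 73.7% of the D538G DMSO regions and 73.5% of the wild-type E2 regions. All 4 wild-type DMSO sites, 3 at MMP17 and 1 at CISH, were among the wild-type E2 sites. No site of the 3 windows had peaks in wild type only, against 3536 of 93612 regions in the genome. Sites with peaks in D538G only numbered 5 of 16 at FHL2, 27 of 50 at MMP17 and 7 of 15 at CISH, in all 48.1% against 56.3% of all regions. Of these 39 sites 27 had a peak in 1 library, and the most libraries any of them had was 5. D538G has 12 libraries and wild type 8 and also the 3 longest lists, which this count does not account for.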

How the data were processed

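The 20 precipitated libraries have 1 deposited peak list each in narrowPeak layout, and 2 inputs were not analysed here. Per the submitters' processing notes, Bowtie and MACS2 were used with build hg19, with no version or role given. The authors deposited a signal value per peak, whose reference is not given in the sources used here, and −log10 p and −log10 q values. All deposited −log10 p values are at least 10.0. Peaks were listed per library and not on pooled replicates. Coordinates are 1-based, with 1 added to the start positions of the lists. Peaks on the mitochondrial sequence (5 of 356472) were set aside.

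Peaks overlapping by at least 1 bp were merged (Python 3.11.15, pandas 2.3.3, the same regions as bedtools 2.31.1). A site is a merged region overlapping a window, and it has a peak in a library if any peak of that library lies in it. Peak numbers were compared by exact two-sided permutation over libraries, adjusted by the Benjamini-Hochberg method over consecutive windows of the same width across the genome, and presence by Fisher's exact test (scipy 1.17.1) over regions with peaks in at least 2 libraries, at a threshold of 0.05. Both tests were run on simulated data with large planted differences between independent libraries. The simulated libraries did not differ in list length as the real ones do, so these runs do not show how the tests perform on these lists. The E2 and DMSO libraries of 1 clone and replicate number come from the same clonal line. They were paired in the difference in E2 effect between genotypes and in the pairing alternative. The main tests of E2 against DMSO left them unpaired. Wild-type and D538G libraries of 1 number come from different clones and share only the number. Sites named one by one are up to 4 per window with peaks in most libraries, ties going to the higher mean percentile. Alternatives were stricter peaks, lists held to at most 1000 peaks, narrower windows, other merging, other units, left-out libraries and pairing. The label unchanged means the same direction and call for a peak number, and no large shift for a site count. No main test passed the adjusted threshold, so a call could change only by passing it. A main difference of 0 had no direction to reverse. With 1 library left out, FHL2 E2 against DMSO in D538G ranged from -1.03 to 1.43. CISH D538G against wild type with E2 ranged from -1.17 to 0.833. Other estrogen target genes could not be compared without an annotation of hg19. The windows, members and tests were chosen with earlier results of these data known.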

Additional observations from a re-analysis of the deposited data

Results flagged for a closer look

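Of 24 group values checked for a library far from the others of its group, 8 were, where chance gives about 1 in 20. In the CISH window, wild-type clone 1 DMSO replicate 2 held 9 peaks, against 0 to 1 in the other 3 wild-type DMSO libraries. The other 7 are peaks per 1000 peaks of the list, and each belongs to the shortest list of its group that had a peak in the windows. Wild-type clone 2 DMSO replicate 2, with 1080 peaks, had 0.926 FHL2 and 2.78 MMP17 peaks per 1000. D538G clone 3 DMSO replicate 2, with 1619 peaks, had 3.09 FHL2, 1.85 MMP17 and 2.47 CISH peaks per 1000. D538G clone 2 E2 replicate 2, with 1977 peaks, had 1.52 MMP17 and 1.01 CISH peaks per 1000.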

How the results depend on the processing

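The read depth of every list is unknown, and list length, clone and replicate number vary together with the groups. Few clones per genotype limit all comparisons. Of 536 alternative values for 23 results, 482 were labelled unchanged as set out above. No peak number or site passed an adjusted threshold of 0.05 in any of them. The smallest adjusted p of a peak number was 0.217. The cause of changes was not tested. The values for 1 replicate number only, without the D538G clone 2 pair of replicate 1, per 1000 peaks with 1 library left out and without both wild-type DMSO lists of under 100 peaks were chosen after seeing the data. The strongest site of a window was the same by signal value and by −log10 p in 47 of 54 lists and windows.

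Some peak number differences changed sign. For MMP17, D538G with DMSO against wild type with E2 gave -1.5 with peaks of −log10 p of at least 20, -0.917 with the 1000 strongest peaks by −log10 p and -0.333 in replicate 2 only. MMP17 E2 against DMSO in D538G gave 0.333 with either 1000-peak limit and 5.67 in replicate 1 only. MMP17 D538G against wild type with E2 gave 0.583 with the 1000 strongest by signal, 0.151 per 1000 peaks and 8.5 in replicate 1 only. MMP17 E2 against DMSO in wild type (11.75) gave -0.0679 per 1000 peaks. Without wild-type clone 2 DMSO replicate 2 it was 0.601 (exact permutation p = 0.0286, adjusted p = 0.461). The MMP17 difference in E2 effect (-13.4) gave 1.17 in replicate 1 only. In replicate 1 only, CISH E2 against DMSO in D538G gave 1 and FHL2 D538G with DMSO against wild type with E2 gave -0.667. In replicate 2 only, FHL2 D538G against wild type with E2 gave -1.17.

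Leaving out each library in turn, D538G against wild type with E2 ranged from -0.45 to 1.55 (FHL2) and from -5.35 to 3 (MMP17). D538G with DMSO against wild type with E2 ranged from -0.85 to 1.35 (FHL2), from -2.95 to 4.67 (MMP17) and from -0.1 to 2.17 (CISH). E2 against DMSO in D538G ranged from -6.6 to 2.53 (MMP17) and from -2.43 to 0.1 (CISH). FHL2 D538G against wild type with DMSO ranged from 4.15 (without D538G clone 1 DMSO replicate 2) to 6.5 (without wild-type clone 1 DMSO replicate 2), with exact permutation p from 0.00794 to 0.0833. Without wild-type clone 1 DMSO replicate 2, the wild-type E2 difference was 5.92 at FHL2 (exact permutation p = 0.0286) and 5.17 at CISH, and CISH D538G against wild type with DMSO was 6.5 (exact permutation p = 0.0476). Without D538G clone 1 E2 replicate 2, the difference in E2 effect was -3.2 (FHL2), -7.35 (MMP17) and -2.4 (CISH).

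Sites called for E2 against DMSO in wild type (2) numbered 4 with −log10 p of at least 20, 0 with either 1000-peak limit, 1 in the middle of the windows and 2 to 4 with 1 library left out, 4 being without wild-type clone 1 DMSO replicate 2. For D538G against wild type with DMSO (7) they numbered 1 with the 1000 strongest by signal, 2 with the 1000 strongest by −log10 p, 4 in the middle of the windows, 2 without both lists of under 100 peaks and 3 to 9 with 1 library left out, 3 being without wild-type clone 1 or clone 2 DMSO replicate 1 and 4 without wild-type clone 2 DMSO replicate 2. With E2 (0) they numbered 1 at −log10 p of at least 20 and 0 to 1 with 1 library left out. For D538G with DMSO against wild type with E2 (1) they numbered 0 in the middle of the windows and 0 to 1 with 1 library left out.

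With E2 and DMSO libraries of 1 clone and number paired (the replicate block), 0 wild-type sites were called. Unpaired, 0 were called without both DMSO lists of under 100 peaks. With the block on number, all that the genotypes share, 6 sites were called under DMSO. The FHL2 difference there had an exact permutation p of 0.02 (adjusted 0.82). The block moved no other count by over 1.5 times. Site counts in this section have no background.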
